A study of Mus musculus with 2 samples.

Results

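The genes of the cytosolic ribosomal proteins were examined in epithelial cells of the colon from 7-week-old C57BL/6 mice, an inbred strain. One group of cells had been incubated with MIF, taken here to be the cytokine macrophage migration inhibitory factor, and the other with PBS, a buffered salt solution. Each group was measured on 1 Affymetrix array, so there is no spread between samples and no test, and every difference below describes these 2 arrays. How many animals gave the cells, how pure the cells were, and the dose and duration of the incubation are not stated in the sources used here. Members were the genes whose single symbol in the platform annotation is Rpl, Rplp or Rps followed by a number with an optional letter or l ending, or Rpsa, without the Rps6 kinases. This gave 45 genes, measured by 88 probe sets, of 8721 named genes in the table. Where a gene had several probe sets, the one with the highest mean log2 signal stood for it. Of the 45, 40 exceeded a signal floor of 232 on both arrays, Rpl14 lay under it on the MIF array alone, and Rps25, Rpl39, Rpl12 and Rps27 lay under it on both with their one unshared probe set. Each of these 4 also has a brighter probe set that carries a further gene's symbol and does not stand for it here.

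The cytosolic ribosome has a small subunit, which reads the mRNA, and a large subunit, which joins amino acids, and each ribosomal protein is used in a fixed copy number. Most ribosomal protein transcripts start with a run of pyrimidines, the 5' terminal oligopyrimidine (TOP) tract, through which mTORC1 and the RNA-binding protein LARP1 control their translation. Rps6 is the substrate of the S6 kinases, and it is phosphorylated when mTORC1 is active. In the intestine these genes are highly expressed in dividing crypt cells.

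The ribosomal protein genes differed little between the arrays. Of the 41 assessed, 37 were lower on the MIF array and 4 were higher with the signals as deposited, where 53.3% of all assessed genes were lower and 46.7% higher. After quantile normalization 19 were lower and 21 higher, and after removal of the trend with intensity 20 were lower and 21 higher. The median log2 difference was -0.073, and 39 genes lay within 1.2-fold. Rps6 was the only one past 1.5-fold, at 2.01-fold lower on a probe set near the floor, and Rpl14 was at least 1.34-fold lower. Of all assessed genes 0.463% were lower by 1.5-fold and 6.29% by 1.2-fold. The mitochondrial ribosomal protein genes, made for a different ribosome, were mostly lower under each of these scalings. The mitochondrial genes are dimmer than most cytosolic members. Both rescalings balance genes of similar signal between the arrays by construction, at dimmer as at brighter signals. Whether the lists differ was not tested.

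Stretches around the annotated transcript start are shown for the members at both ends of the range, Rps6, Rpl14 and Rpsa as the lowest and Rpl37 and Rps27l as the highest, and for the assessed members with the longest pyrimidine runs, Rpl7a and Rpl27a. Each runs from 30 bases before the start to 30 bases from it, on the gene's strand, from RefSeq on GRCm38.p6, and capitals mark its longest unbroken run of C and T, the first one where runs are equally long (2 in Rps27l).
Rps6 (chr4:86857338-86857397, minus strand): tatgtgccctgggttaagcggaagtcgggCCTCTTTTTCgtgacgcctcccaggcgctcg
Rpl14 (chr9:120571487-120571546, plus strand): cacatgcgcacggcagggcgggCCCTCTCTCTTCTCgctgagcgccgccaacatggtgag
Rpsa (chr9:120127736-120127795, plus strand): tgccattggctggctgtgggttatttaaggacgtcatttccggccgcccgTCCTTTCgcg
Rpl37 (chr15:5116583-5116642, plus strand): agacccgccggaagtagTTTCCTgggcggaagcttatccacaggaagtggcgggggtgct
Rps27l (chr9:66946056-66946115, plus strand): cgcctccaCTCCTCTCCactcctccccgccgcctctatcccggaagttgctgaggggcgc
Rpl7a (chr2:26910777-26910836, plus strand): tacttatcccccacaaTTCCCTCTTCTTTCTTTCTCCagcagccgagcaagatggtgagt
Rpl27a (chr7:109519165-109519224, plus strand): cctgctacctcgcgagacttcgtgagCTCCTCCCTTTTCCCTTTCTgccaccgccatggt

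The run spanned the annotated start in Rps6, where it was 10 bases long, and in Rpl14, where it was 14. In Rpl7a and Rpl27a it also crossed the start, with 21 and 20 bases. In Rpsa the longest run had 7 bases and lay downstream of the start, and in Rpl37 and Rps27l it lay upstream, with 6 and 9 bases. Of the genes shown only Rps27l has several annotated starts (2), and its stretch is from the start chosen for the longest run. The stretches were picked by their differences or their run length, and a relation between the run and the difference was not tested. The RefSeq table held promoters for 39 of the 45 genes; Rpl7, Rpl8, Rps4l, Rps14, Rps20 and Rps29 are named only. In the 60-base window the longest run of C and T had a median of 9 bases in these 39 genes, against 6 in all 27025 genes with a promoter, taking the start with the longest run where a gene has several. A run of at least 8 bases was found in 23 of the 39 (59.0%) and in 25.8% of all genes. On the other strand, which is read as A and G here, such a run was found in 12.8% of the 39 genes and in 28.7% of all genes. Among 69 mitochondrial ribosomal protein genes it was found in 14.5%. The core of the ETS factor site, CGGAAGT on either strand, was found in 13 of the 39 promoters of 300 bases (33.3%). It was found in 17 of the 69 mitochondrial ribosomal protein genes (24.6%), in 15.4% of the genes of the table and in 7.20% of all genes. No overlap with another motif was scored, and annotated starts can lie some bases from the start used in these cells.

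**Figure D1:**
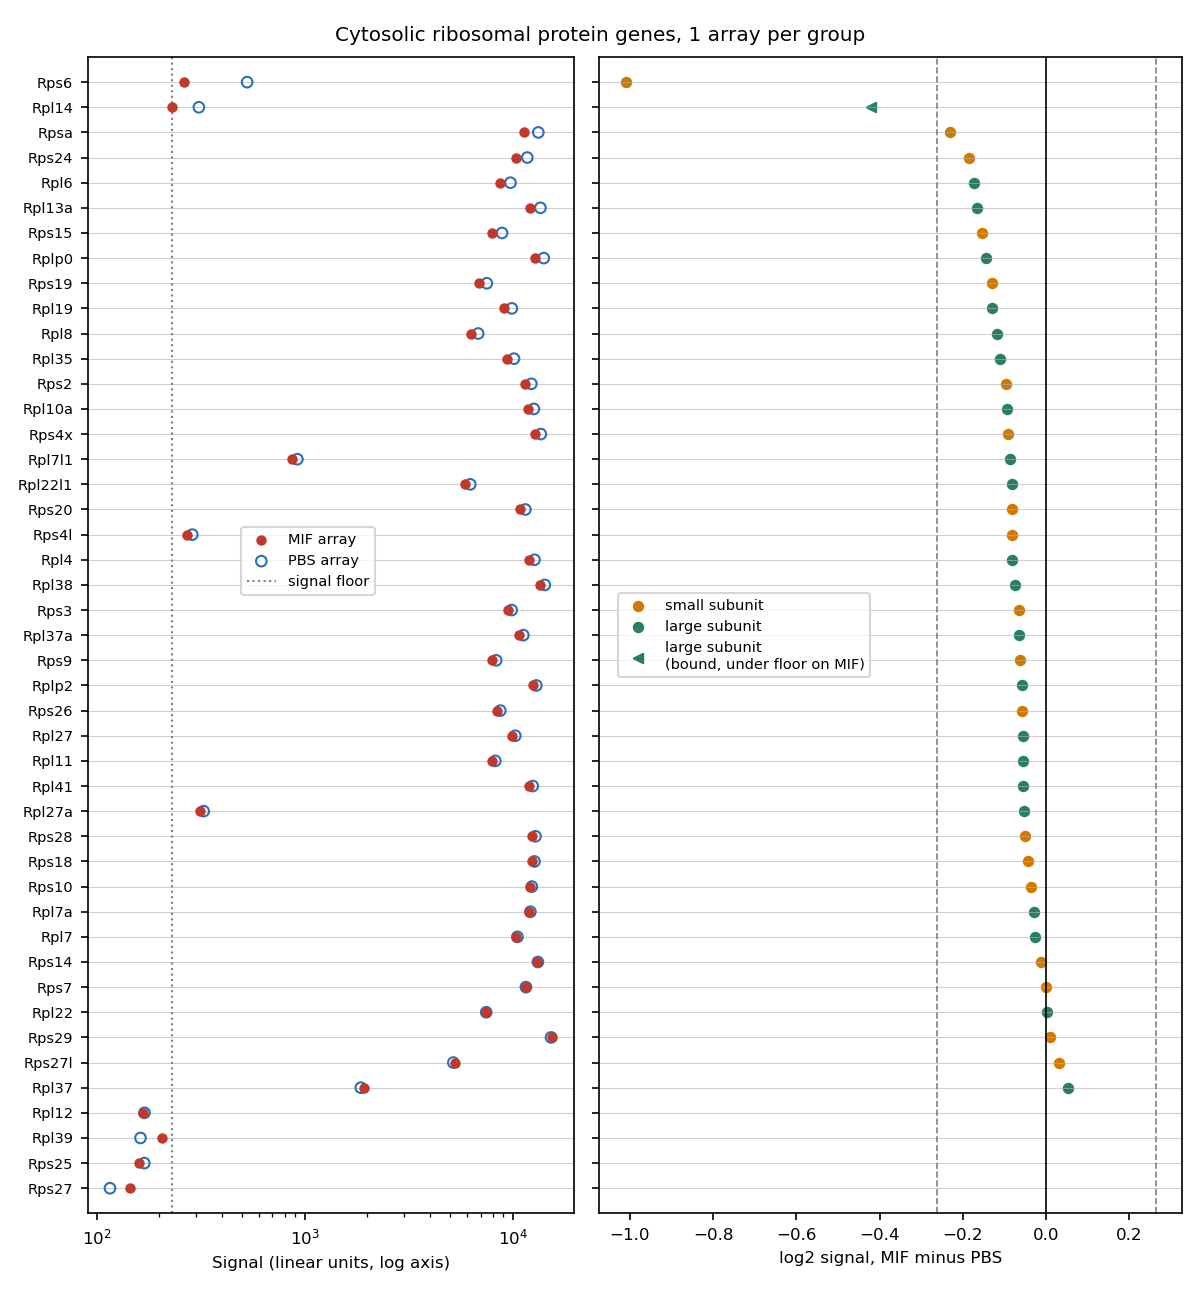
The left panel plots the signal of each of the 45 ribosomal protein genes on the MIF array (filled) and the PBS array (open) on a log axis, with the floor of 232 as a dotted line. The right panel plots the log2 difference, MIF minus PBS, of the 41 assessed genes, with dashed lines at 1.2-fold, and 37 points lie below 0 with the signals as deposited (19 after quantile normalization, 20 after removal of the trend with intensity).

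All 14 listed epithelial markers, such as Epcam, Krt8 and the colonocyte transporter Slc26a3, lay above the floor on both arrays, with summed signals of 97041 on the MIF array and 100798 on the PBS array. Fibroblast and T and NK cell markers differed more, in opposite directions. The 7 fibroblast markers summed to 1877 on the MIF array and 751 on the PBS array. Only Dcn among them lay above the floor on both arrays, 2 did on the MIF array alone, and 4 lay under it on both. The 5 of 9 T and NK cell markers in the table summed to 779 on the MIF array and 1517 on the PBS array. Of these, Gzma and Gzmb lay above the floor on both arrays and made up most of the sums, and 3 lay under it on both. Of the 7 listed myeloid markers the table held 6, 4 of them under the floor on both arrays, with sums of 1821 on the MIF array and 1785 on the PBS array. Of the B and plasma cell and endothelial markers the table held 1 each, under the floor on both arrays, and it held no erythroid marker. No marker in the table was at 0. The part of these cells in any difference below was not tested, and in bulk RNA fewer cells of a type and less RNA per cell cannot be told apart. The median signal of all probe sets was 346 on the MIF array and 337 on the PBS array.

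Most members were among the brightest features of the arrays. Of the 40 genes above the floor on both arrays, 35 were in the top 10% of named genes by mean signal. Of the 50 probe sets with the highest mean signal, 25 carried a ribosomal protein symbol. The highest signal of each array was on a probe set of Rps29, at 15364 on the MIF array and 15440 on the PBS array. Whether such probe sets were saturated was not tested. The order of signals between probe sets is not an order of transcript levels.

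The shift of the members was set beside that of all assessed genes and of genes grouped by signal. On the MIF array 90.2% of the 41 members were lower, and 53.3% of all 5837 assessed genes. The median log2 difference was -0.073 in the members and -0.011 in all assessed genes. The shift grew with signal. From the dimmest to the brightest of 10 equal groups of named genes, the median log2 difference was 0.018 in the first, -0.00020 in the fifth and -0.058 in the last. In that brightest group 71.7% of 555 genes were lower. The 35 members in it had a median of -0.065, and its other 520 genes had -0.055. The 35 members were more alike than those other genes, with an SD of the log2 difference across genes of 0.059 against 0.14. Mean signals in this group run from 3468 to 15316, and the members were not matched to the others by signal within it. Their differences ran from -0.23 in Rpsa to 0.032 in Rps27l, and those of the 520 from -0.94 to 0.67.

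**Figure D2:**
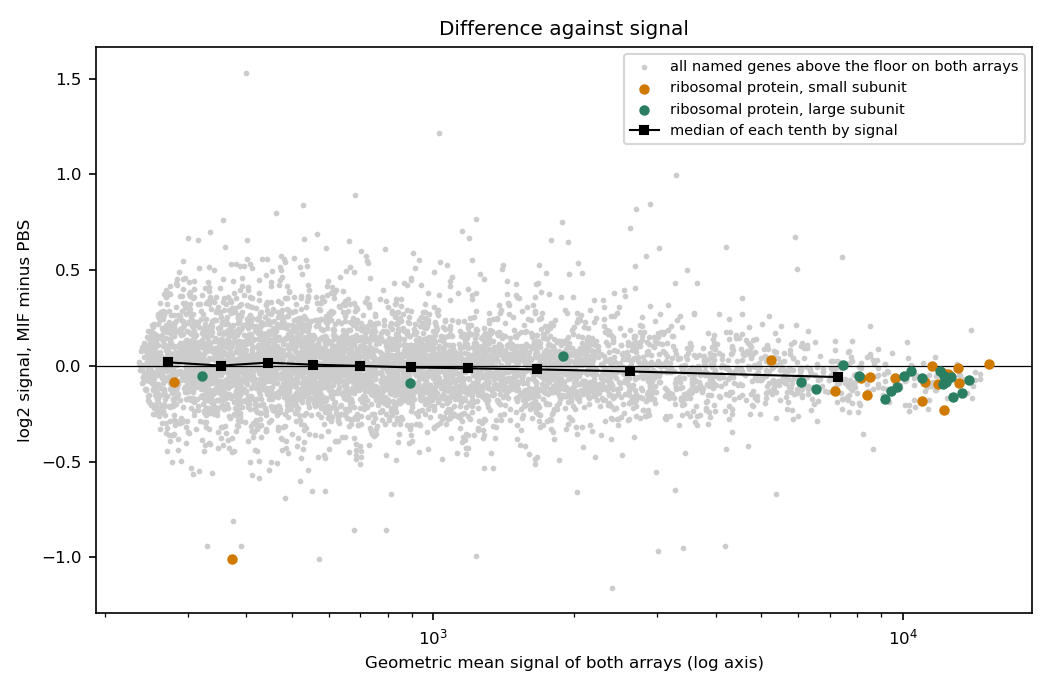
Each point is a named gene above the floor on both arrays, with the geometric mean of its signals on a log axis and its log2 difference, MIF minus PBS. Black squares are medians of 10 groups by signal, placed at the geometric middle of each group's range, and fall to -0.058 at the bright end, where 35 of the 40 ribosomal protein genes lie.

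The direction of the members depended on how the arrays were scaled. With median centring 40 of 41 were lower, and the median was -0.11. After quantile normalization the median was 0.0039, with 19 lower, 21 higher and 1 with no difference. With the trend with intensity removed, the median was 0.0028. The brightest 10% of all genes moved in the same way, with 71.7% lower as deposited, 50.4% after quantile normalization and 50.4% with the trend removed. These 2 procedures set genes of similar signal, bright ones included, to be equal on balance between the arrays. By construction they cannot show a shift shared by most bright genes.

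**Figure D3:**
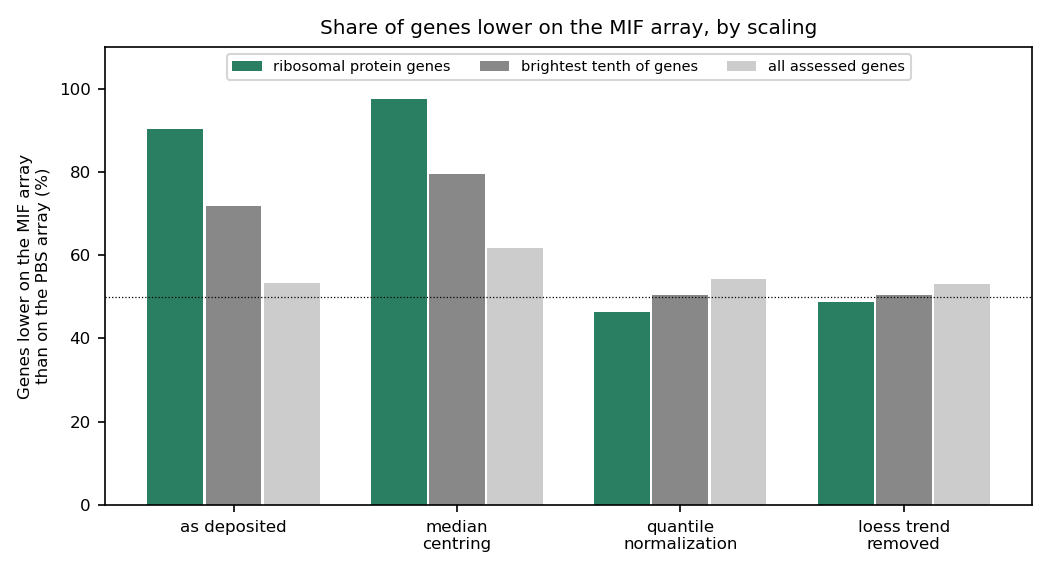
Bars give the percent of genes lower on the MIF array for the ribosomal protein genes, the brightest 10% of genes and all assessed genes under 4 scalings. For the ribosomal protein genes it is 90.2% as deposited, 97.6% with median centring, 46.3% after quantile normalization and 48.8% with the trend with intensity removed.

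By the thresholds, few members stood out. None of 41 was higher by at least 1.2-fold, where 6.82% of all assessed genes were. Lower by at least 1.2-fold were 2 members, Rps6 and Rpl14, against 6.29% of all assessed genes. Lower by at least 1.5-fold was Rps6 alone, against 0.463% of all assessed genes, and no member was higher by 1.5-fold, against 0.634%. Both genes past 1.2-fold were represented by a dim probe set. Of the 35 members in the top 10% by signal, none passed 1.2-fold in either direction.

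In the small subunit, 17 of 19 assessed genes were lower on the MIF array (89.5%, against 53.3% of all assessed genes). The median log2 difference was -0.065, which was 0.0078 after quantile normalization and 0.0052 with the trend removed. Rps6, on its one unshared probe set, had a signal of 263 on the MIF array and 529 on the PBS array, a log2 difference of -1.01. The MIF value lay just above the floor of 232. With a floor at the 60th percentile of signals the difference was a bound of -0.088. The annotation ties 9 further probe sets to Rps6 together with its pseudogene Rps6-ps4, so these cannot be assigned to a single gene. Of the 8 above the floor on both arrays, 6 were lower and 2 higher, with log2 differences from -0.33 to 0.52 and a median of -0.070. The first of them had 11318 on the MIF array and 12505 on the PBS array, and another had 831 on the MIF array and 578 on the PBS array. The difference of about 2-fold was thus seen on 1 probe set of the 9 above the floor that the annotation ties to Rps6.

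Rpsa, the small subunit protein also known as the laminin receptor precursor, had signals of 11290 on the MIF array and 13257 on the PBS array, a log2 difference of -0.23. It was the largest difference among members in the top 10% by signal. Proteins around the decoding site and the mRNA channel were represented by Rps2, Rps3, Rps14, Rps15, Rps18 and Rps26. All 6 were lower as deposited, from -0.15 in Rps15 to -0.012 in Rps14, where 90.2% of all members and 53.3% of all assessed genes were lower. After quantile normalization Rps3, Rps14, Rps18 and Rps26 were higher, and Rps2 and Rps15 lower. Rps15 had 7981 on the MIF array and 8876 on the PBS array, and its other probe set differed by -0.23. Rps3, at the entry of the mRNA channel, had 9438 on the MIF array and 9873 on the PBS array. Rps2, Rps3, Rps10 and Rps20, which are ubiquitinated when ribosomes collide, had log2 differences as deposited from -0.097 in Rps2 to -0.035 in Rps10. After quantile normalization Rps3, Rps10 and Rps20 were higher, and Rps2 lower.

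Rps10 had 5 probe sets that exceeded the floor on both arrays, all lower, from -0.17 to -0.035. Rps18 had 3, from -0.18 to -0.044, and Rps28, at the exit of the mRNA channel, had 3, from -0.076 to -0.051. Rps24 had 4 that did not go the same way. Its brightest probe set had 10321 on the MIF array and 11733 on the PBS array (-0.19), and a pair of others differed by -0.072 and -0.049. The fourth had 4559 on the MIF array and 3163 on the PBS array, a log2 difference of 0.53. Rps29 had 3 probe sets, 2 of them lower and 1 higher, from -0.074 to 0.0091. Rps7, at 11554 on the MIF array and 11559 on the PBS array, differed by -0.00055. Rps25 was under the floor with its unshared probe set, and the one it shares with predicted genes had 6478 on the MIF array and 6852 on the PBS array (-0.081).

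Of 10 genes listed for Diamond-Blackfan anaemia, a human disorder of ribosomal protein haploinsufficiency, 6 were members. These were Rps7, Rps10, Rps19, Rps24, Rps26 and Rpl11, with log2 differences as deposited from -0.19 in Rps24 to -0.00055 in Rps7 and a median of -0.056. All 6 were thus lower, where 53.3% of all assessed genes were. After quantile normalization Rps7, Rps10, Rps26 and Rpl11 were higher, and Rps19 and Rps24 lower. Rps19, the gene most often mutated in that disorder, had 6852 on the MIF array and 7502 on the PBS array, a difference of -0.13.

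In the large subunit, 20 of 22 assessed genes were lower (90.9%, against 53.3% of all assessed genes). The median log2 difference was -0.078, which was -0.0051 after quantile normalization and -0.0038 with the trend removed. Rpl14, on its one unshared probe set, had a signal of 230 on the MIF array, just under the floor, and 310 on the PBS array, so that it was at least 1.34-fold lower. The annotation ties 5 brighter probe sets to Rpl14 together with the pseudogene Rpl14-ps1. All 5 were lower, from -0.29 to -0.17, and the brightest had 7739 on the MIF array and 8737 on the PBS array. For Rpl14 the shared probe sets therefore had the same direction as the unshared one, while for Rps6 they were divided.

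Among the proteins of the stalk, which recruits translation factors, Rplp0 had 12755 on the MIF array and 14086 on the PBS array (-0.14), and Rplp2 had 12453 on the MIF array and 12968 on the PBS array (-0.058). Rpl12, at the stalk base, was under the floor on both arrays with its unshared probe set. A pair of probe sets it shares with predicted genes was divided, with 11536 on the MIF array and 12252 on the PBS array (-0.087) for one and 8295 on the MIF array and 8033 on the PBS array (0.046) for the other. Rpl11, which binds 5S rRNA and in its free form binds the p53 regulator Mdm2, had 7923 on the MIF array and 8234 on the PBS array (-0.056). Of the proteins lining or near the end of the peptide exit tunnel, Rpl4 had 12013 on the MIF array and 12715 on the PBS array (-0.082). Rpl19 had 9034 on the MIF array and 9888 on the PBS array (-0.13). Rpl35 was lower on all 5 of its probe sets, from -0.12 to -0.034. Rpl39 was under the floor on both arrays with its unshared probe set, and the one it shares with a predicted gene had 11710 on the MIF array and 13115 on the PBS array (-0.16).

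Rpl6 had 8644 on the MIF array and 9741 on the PBS array (-0.17). Rpl13a, which in human myeloid cells also silences interferon gamma-induced transcripts, had 12107 on the MIF array and 13574 on the PBS array (-0.17). Its 4 unshared probe sets ran from -0.17 to 0.054, with 3 lower and 1 higher. The 3 probe sets of Rpl7 were all lower, from -0.060 to -0.026. Of the 3 of Rpl27, 2 were lower and 1 higher, from -0.056 to 0.051. Rpl37 was the member with the largest difference towards MIF, with 1930 on the MIF array and 1861 on the PBS array (0.052). A pair of probe sets shared with the retrogene Rpl37rt and above the floor went the other way, at -0.070 and -0.035.

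**Figure D4:**
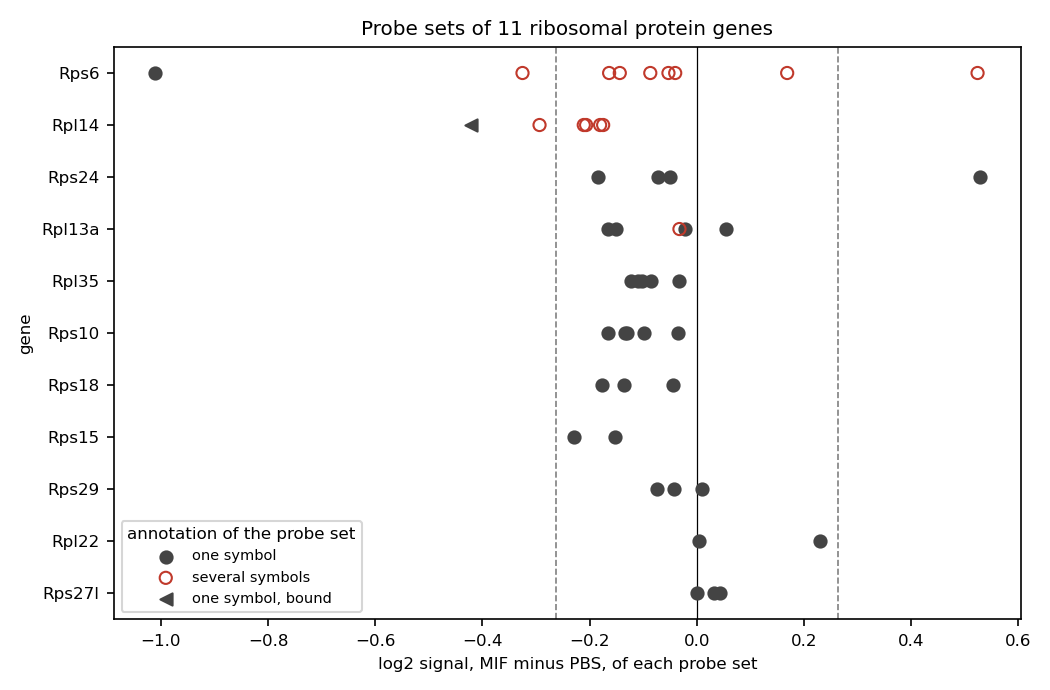
Log2 differences, MIF minus PBS, of single probe sets of 11 ribosomal protein genes, for those that exceeded the floor on both arrays. Filled points have 1 gene symbol, open points share it with a pseudogene or another gene, the triangle is the bound of Rpl14, and dashed lines mark 1.2-fold. The unshared probe set of Rps6 at -1.01 stands away from the 8 shared ones, which lie between -0.33 and 0.52.

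Paralogues were compared with the genes they resemble. Rpl22 had 7468 on the MIF array and 7451 on the PBS array (0.0032), and a dimmer probe set of it differed by 0.23. Its paralogue Rpl22l1, which Rpl22 represses in mouse cells, had 5899 on the MIF array and 6246 on the PBS array (-0.083). Rps27l, a p53-induced paralogue of Rps27, had 5296 on the MIF array and 5178 on the PBS array (0.032), and its 3 probe sets lay between -0.00028 and 0.044. Rps27 itself was under the floor on its one unshared probe set, at 144 on the MIF array and 116 on the PBS array, and the probe set it shares with Rps27rt had 7814 on the MIF array and 8294 on the PBS array (-0.086). Rpl7l1, a paralogue of Rpl7, had 868 on the MIF array and 922 on the PBS array (-0.087), and 0.027 on a second probe set. The Rps4x paralogue Rps4l had 272 on the MIF array and 288 on the PBS array (-0.082), and Rps4x had 12788 on the MIF array and 13631 on the PBS array (-0.092). All assessed paralogues lay within 1.2-fold.

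The probe sets of a gene give an error of hybridisation within these arrays, not between cell preparations. For 18 members with at least 2 probe sets over the floor on both arrays, the pooled SD of the log2 difference between probe sets of a gene was 0.11. It was 0.060 without Rps24, the member with the widest range. Over 1800 named genes with at least 2 such probe sets, none left out, the pooled SD was 0.15. Of the 18 members, 10 had all their probe sets in the same direction, a share near that of the 1800 named genes, where 1041 did. Of the 41 assessed members, 34 differed between the arrays by no more than the 0.15 of all named genes. By no more than 0.11 differed 30, and 17 by no more than 0.060.

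A pair of ribosomal protein genes outside the symbol pattern was also lower. Fau, which encodes a small subunit protein fused to a ubiquitin-like protein, had 7554 on the MIF array and 8654 on the PBS array (-0.20), below the lower quartile of the members (-0.12). Rps3a1 had 12968 on the MIF array and 13414 on the PBS array (-0.049), nearer to the members' median.

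The 74 mitochondrial ribosomal protein genes had a median log2 difference of -0.11, and 60 were lower and 14 higher. Past 1.2-fold, 8 were lower (10.8%, against 6.29% of all assessed genes) and 1 was higher (1.35%, against 6.82%). Mrps34 had 1878 on the MIF array and 2610 on the PBS array (-0.47), and Mrpl28 had 1134 on the MIF array and 1557 on the PBS array (-0.46). In the other direction, Mrpl33 had 551 on the MIF array and 404 on the PBS array (0.45), and Mrpl47 differed by 0.18. After quantile normalization their median was -0.13 with 82.4% of genes lower, where that of the cytosolic genes was 0.0039 with 46.3% lower. With the trend removed it was -0.12 with 81.1% lower, where that of the cytosolic genes was 0.0028 with 48.8% lower. Whether the lists differ was not tested, since there is 1 array per group.

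Lists of ribosome production and its control held genes in both directions. Of 80 assessed ribosome assembly genes, 46 were lower (57.5%, against 53.3% of all assessed genes) and 34 higher, with a median of -0.036. Past 1.2-fold, 3 were lower (3.75%, against 6.29% of all assessed genes) and 2 higher (2.5%, against 6.82%). The RNA helicase gene Ddx49 differed by -0.36 and the rRNA methyltransferase gene Fbl by -0.34. Nol11, of the small subunit processome, differed by 0.46, and Riok2, a kinase of small subunit maturation, was at least 1.25-fold higher. The table held 12 RNA polymerase I genes, of which 4 were assessed, with Ubtf at -0.14, Polr1c at 0.087 and Taf1d at 0.074.

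Elongation factors and other mRNAs known to carry TOP tracts had a median of -0.066, with 10 of 18 lower (55.6%, against 53.3% of all assessed genes) and 8 higher. Past 1.2-fold, 2 were lower (11.1%, against 6.29% of all assessed genes) and none higher (6.82% of all). Those were Eif3f, a subunit of an initiation factor, with 5948 on the MIF array and 7259 on the PBS array (-0.29), and Eef1d, an exchange factor of elongation, with 2253 on the MIF array and 2733 on the PBS array (-0.28). Naca, of the nascent chain complex, differed by 0.084, and the histone chaperone gene Nap1l1 by 0.061.

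Of 20 assessed genes of the S6 kinases, their phosphatase and mTORC1, 13 were lower (65%, against 53.3% of all assessed genes) and 7 higher, with a median of -0.034. Past 1.2-fold, 3 were higher (15%, against 6.82% of all assessed genes) and none lower (6.29% of all). Pdpk1, the kinase that phosphorylates the activation loop of S6 kinases, had 1054 on the MIF array and 766 on the PBS array (0.46). Rraga, a GTPase that brings mTORC1 to lysosomes, differed by 0.29, and Deptor, an inhibitor of mTOR, by 0.28. The phosphatase subunit gene Ppp1ca differed by -0.18 and Eif4ebp1, a translation repressor inactivated by mTORC1, by -0.16. The S6 kinase gene Rps6kb2 had 199 on the MIF array, under the floor, and 251 on the PBS array.

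**Figure D5:**
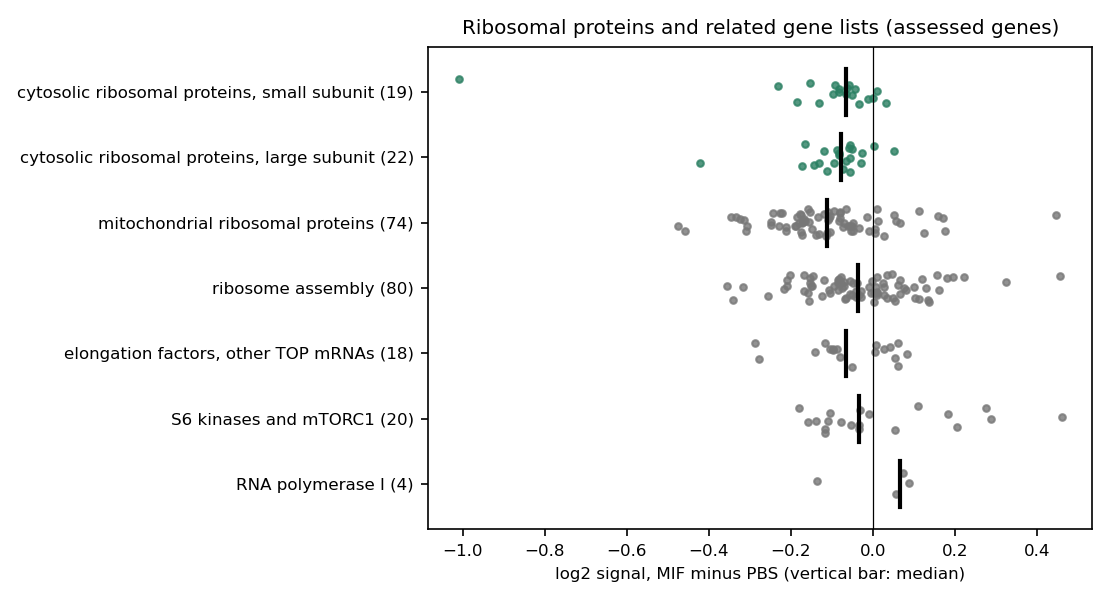
Each point is the log2 difference, MIF minus PBS, of an assessed gene as deposited, with its list on the vertical axis, the number of genes in parentheses and the median as a bar. The medians of the small and large subunit genes are -0.065 and -0.078, which turn to 0.0078 and -0.0051 after quantile normalization, and that of the mitochondrial ribosomal protein genes is -0.11.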

How the data were processed

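Total RNA was extracted with Trizol and labelled with biotin by the Affymetrix protocol, per the labels' protocols. The authors deposited 1 processed signal intensity per probe set, which the values show to be linear. How the authors summarised probes, corrected background and scaled arrays is not given in the sources used here.

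Of 15340 probe sets, 61 controls were left out. GEO's platform annotation gave 14049 probe sets 1 gene symbol, 490 several and 740 none, and only those with 1 were named. The deposited intensity was taken to log2 without centring, since the column medians differed by 0.037, under the limit of 0.1. Values under the 40th percentile were raised to it, and a gene under it on 1 array gives a bound. Thresholds of 1.2-fold and 1.5-fold were used without a test, since 1 array per group leaves no residual error.

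The members and lists were chosen with earlier results of these data known. Named were up to 6 of the largest differences in each direction, though only 4 members were higher on the MIF array. Members under the floor, members of set role groups and members with at least 3 probe sets above the floor were also named. So were members with opposed probe sets of which at least 1 passed 1.2-fold, and the 2 largest differences in each direction of each related list. Rps3a1, Rpl7a, Rpl27a, Rps4x, Rps6kb2 and further members named as examples do not come from this rule and were picked with their values in view. Alternatives were other scalings, floors at the 20th and 60th percentile or none, the mean of probe sets, no _x_at or _s_at probe sets, no l endings and 1.5-fold. Dropping pseudogene and retrogene symbols, counting genes on either side of 0, and leaving Rps24 out of a pooled SD were chosen after seeing the data. The steps were tested on simulated data. Python 3.11.15, numpy 2.4.6, pandas 2.3.3, statsmodels 0.14.6 (loess span 0.3) and matplotlib 3.10.9 were used.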

Additional observations from a re-analysis of the deposited data

How the results depend on the processing

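The median of the ribosomal protein genes ran from -0.11 with median centring to 0.0039 after quantile normalization. Counts of members lower and higher (37 and 4 as deposited) turned to 19 and 21 after quantile normalization and to 20 and 21 with the trend removed, and 1 was higher with median centring. The count at least 1.2-fold higher (0) was 2 with a 20th percentile floor, 2 without a floor and 1 with the mean of probe sets, where probe sets under the floor enter. The count at least 1.2-fold lower (2) was 3 with median centring, 3 with the mean of probe sets, 0 with the floor at the 60th percentile, 1 at the 1.5-fold threshold and 0 with pseudogene symbols dropped. The count at least 1.5-fold lower (1, Rps6) was 0 with the floor at the 60th percentile and 0 with pseudogene symbols dropped, where the brightest shared probe set stands for Rps6 at -0.087. Of 394 values of single members under an alternative, 388 moved by less than 0.15, the SD between a gene's probe sets, and 6 by more. No paired analysis was possible because each group has 1 array.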

Other observations

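Besides the member probe sets, 98 probe sets carried a ribosomal protein symbol together with another, in most cases a pseudogene or a predicted gene, and involved 40 ribosomal protein genes, 27 of them without a probe set of their own in the table. Of the 86 above the floor on both arrays, 76 were lower on the MIF array and 10 higher as deposited, with a median log2 difference of -0.085. Among all assessed genes 53.3% were lower as deposited, and among the brightest 10% of genes 71.7%. Past 1.2-fold, 3 were lower (6.29% of all assessed genes were) and 3 higher (6.82% of all). No count after rescaling is given for these probe sets.

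The 3 probe sets tied to Rpl36 and Rpl36-ps12 were all lower, with 9336, 4034 and 2133 on the MIF array and 10413, 4771 and 2935 on the PBS array. Those tied to Rpl5, the 5S rRNA-binding partner of Rpl11, and Rpl5-ps2 were divided. The brightest had 11505 on the MIF array and 12373 on the PBS array (-0.10), and a dim one had 561 on the MIF array and 420 on the PBS array (0.42).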
